A study of Homo sapiens with 8 samples.

Results

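The minor spliceosome protein genes described here are 8 genes whose products sit in the U11/U12 di-snRNP or read the ends of minor introns: RNPC3, SNRNP48, PDCD7, ZRSR2, ZCRB1, SNRNP25, SNRNP35 and ZMAT5. They were taken by name from a fixed list and matched by Ensembl gene identifier with GENCODE release 44 on GRCh38. They are 8 of 60624 genes counted, and all 8 were among the 18661 genes with enough reads to be tested. RNA came from A549, an established human lung adenocarcinoma cell line, and was sequenced in 8 libraries of 4 groups: untreated cells, cells given indisulam, cells given SPHINX31, and cells given the combination. Indisulam is a sulfonamide that leads to degradation of the splicing factor RBM39, and SPHINX31 inhibits SRPK1, a kinase of SR splicing factors. By the study's methods the doses were 0.5 μM indisulam and 5 μM SPHINX31 for 24 h, whereas the deposited labels give 2 μM indisulam and 18 h for every library, untreated ones included. The text below names the groups by treatment alone.

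Each group held 2 technical replicates, so the spread between libraries leaves out variation between independent treatments, and the p-values measure only the spread between these libraries. The libraries held 51727369 to 63186989 reads on genes, with a median of 57337791. Epithelial markers were abundant (KRT8 had 188237 to 253576 reads per library), leukocyte markers were at or near 0 (PTPRC 0 to 3, CD3E 0) and the endothelial marker PECAM1 had 83 to 133. The alveolar type II markers were near 0, with 4 to 11 reads on NKX2-1, 0 on SFTPB, 0 to 1 on SFTPA1 and 6 to 18 on SFTPC. Fewer transcripts per cell and fewer cells of one state cannot be told apart in such bulk RNA. Levels are given as CPM, reads scaled to a common library size after TMM adjustment, and a difference was called when its adjusted p-value was under 0.05.

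Most human introns are removed by the major spliceosome, in which U1 reads the 5′ splice site and U2 the branch point. A small class, the U12-type introns, is removed by the minor spliceosome, in which U11 and U12 take these roles as a preformed di-snRNP, U4atac and U6atac replace U4 and U6, and U5 is shared. The proteins of the di-snRNP hold U11 and U12 together and touch the splice sites, and genes with U12-type introns depend on them for a correct mRNA. The genes RNPC3 and SNRNP48 are also known for a conserved element built from tandem copies of the U12-type 5′ splice site, to which U11 binds and through which the di-snRNP regulates the processing of their own transcripts.

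To show this element, the gene bodies of all 8 were searched on the sense strand for the motif TATCCTT occurring again within 30 bases, counted from start to start. The pair was found in RNPC3 and SNRNP48, and the other 6 members held none. Each sequence is shown 5′ to 3′ on the plus strand of GRCh38, with the motif copies in capitals.
RNPC3, chr1:103553318-103553340: gTATCCTTtcttgtcgTATCCTT
SNRNP48, chr6:7599736-7599761: gTATCCTTtttgcaaatgaTATCCTT
The copies are 8 bases apart in RNPC3 and 11 bases apart in SNRNP48. In RNPC3 the pair lies 27628 bases from the gene start, in the last intron of the canonical transcript, inside an exon of 2 of the 9 annotated transcripts, and downstream of the coding end of 7. In SNRNP48 it lies 9539 bases from the gene start, in an intron of the canonical transcript and inside an exon of 1 of the 3 annotated transcripts, which is a retained intron form. The same pair was present in 640 of 20038 other protein-coding genes (3.19%), and in 12 of 2126 (0.564%) of those with a span of 20000 to 30000 bases, a range that holds the spans of both genes (29549 bases for RNPC3 and 21770 for SNRNP48). A match is a description of letters and not a measured site. The counts are per gene, so use of the exons around the pair was not measured.

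Indisulam changed 4 of the 8 genes, and the 2 genes with the tandem element moved in opposite directions. RNPC3, ZRSR2 and ZCRB1 rose, by 1.89-fold, 1.25-fold and 1.18-fold, and SNRNP48 fell to 0.686 of its untreated level. Among all 18661 tested genes, 20.1% were called higher and 23.5% lower with indisulam, 43.7% in all, so that 4 of 8 is close to the share of all genes and is not a result about these 8 as a group. SNRNP25, SNRNP35, PDCD7 and ZMAT5 did not pass the threshold.

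With SPHINX31 alone RNPC3 and SNRNP25 were called lower and none of the 8 higher, where 4.94% of all tested genes were called higher, 3.67% lower and 8.61% in all. Both calls depended on single libraries, as described with each gene. The combination called 5 members against untreated cells, RNPC3, ZRSR2 and ZCRB1 higher and SNRNP48 and SNRNP25 lower, beside 23.8% of all tested genes higher, 26.3% lower and 50% in all. Against SPHINX31 alone, the combination had RNPC3, ZRSR2 and ZCRB1 higher and SNRNP48 lower, beside a background of 23.4% higher, 26.5% lower and 49.9% in all. These comparisons share control libraries, so that their common directions are not separate observations.

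Between the combination and indisulam alone no member was called by edgeR's quasi-likelihood test or by DESeq2. Of all tested genes 3.17% were called higher, 4.32% lower and 7.50% in all. An unadjusted p-value under 0.05 was found for 4 of the 8 (SNRNP25, SNRNP35, RNPC3 and PDCD7) and for 4145 of all 18661 tested genes (edgeR). The interaction, which asks whether the combination departs from the sum of the log2 changes of both single treatments, was called for 0% of the tested genes by edgeR, with 1584 of 18661 at an unadjusted p-value under 0.05, and for 31 genes by DESeq2. None of the 8 members was called in it by either tool or had an unadjusted p-value under 0.05. The estimates for the members ran from -0.12 for SNRNP35 (SE 0.102) to 0.17 for RNPC3 (SE 0.132) on the log2 scale, which leaves departures of that size undetectable at this replication.

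**Figure D1:**
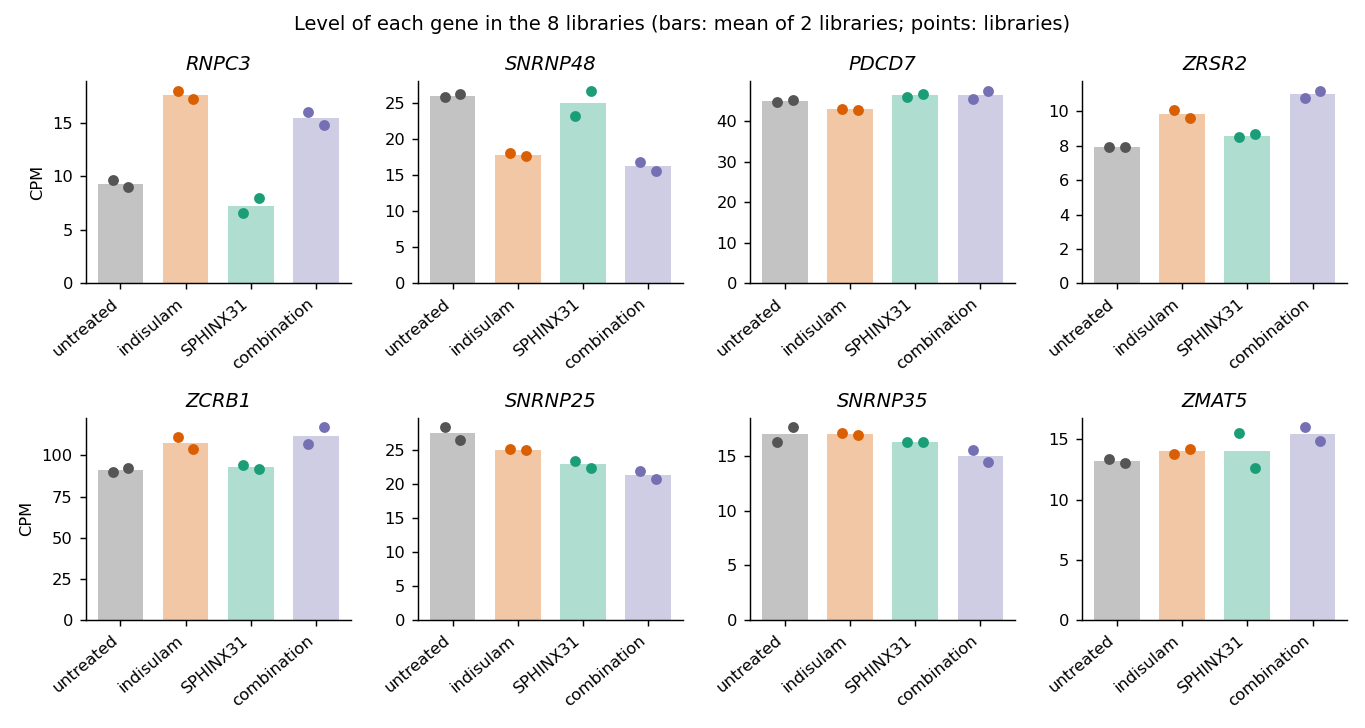
Level of each of the 8 genes (CPM, linear axis from 0) in the 4 groups, with bars for the mean of the 2 libraries and points for the libraries. RNPC3 stood at 18.0 and 17.2 CPM with indisulam and at 9.64 and 9.01 in untreated cells, and SNRNP48 at 18.0 and 17.6 against 25.8 and 26.2.

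RNPC3 (ENSG00000185946, chromosome 1, 103525691 to 103555239, plus strand) encodes the di-snRNP protein that binds the U12 snRNA and links it to the U11 side. Its level was 9.64 and 9.01 CPM in untreated cells, 18.0 and 17.2 with indisulam, 6.53 and 7.93 with SPHINX31, and 16.0 and 14.8 with the combination. All 4 libraries with indisulam lay above all 4 without it, and the SPHINX31 libraries were the lowest. The means were 9.32 ± 0.451 in untreated, 17.6 ± 0.557 in indisulam, 7.23 ± 0.988 in SPHINX31 and 15.4 ± 0.818 CPM in combination cells (SD, n = 2). The rise with indisulam was 0.92 on the log2 scale (SE 0.0913, adjusted p = 3.68e-06, edgeR quasi-likelihood, Benjamini-Hochberg adjusted), the largest change of the 8 genes in that comparison.

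With the combination RNPC3 was 0.72 higher than in untreated cells on the log2 scale (SE 0.0918, adjusted p = 2.31e-05, edgeR) and 1.09 higher than with SPHINX31 alone (SE 0.0950, adjusted p = 8.23e-07, edgeR), a 2.12-fold difference. Against indisulam alone it was -0.20 (SE 0.0880, adjusted p = 0.203, edgeR), a difference that did not pass. With SPHINX31 alone it was -0.36 against untreated cells (SE 0.0982, adjusted p = 0.0362, edgeR). This last call rested on few libraries: the adjusted p-value was 0.226 without untreated replicate 1, 0.0950 without untreated replicate 2 and 0.238 without SPHINX31 replicate 1, where the change was -0.24. RNPC3 shares 1295 exonic bases on the same strand with AMY2B, whose own count was 5 to 13 reads per library, and its processed copy RNPC3P1 had 0 to 2.

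SNRNP48 (ENSG00000168566, chromosome 6, 7590198 to 7611967, plus strand) encodes the U11 protein that contacts the 5′ splice site of U12-type introns. Its level was 25.8 and 26.2 CPM in untreated cells, 18.0 and 17.6 with indisulam, 23.2 and 26.7 with SPHINX31, and 16.8 and 15.6 with the combination. The 4 libraries with indisulam were all below the 4 without it, and the SPHINX31 libraries spanned the untreated ones. Group means were 26.0 ± 0.345, 17.8 ± 0.294, 25.0 ± 2.49 and 16.2 ± 0.869 CPM in the same order (SD, n = 2).

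SNRNP48 fell by 0.54 on the log2 scale with indisulam (SE 0.0763, adjusted p = 7.62e-05, edgeR quasi-likelihood, Benjamini-Hochberg adjusted) and by 0.68 with the combination (SE 0.0766, adjusted p = 7.60e-06, edgeR). Against SPHINX31 alone the combination was 0.63 lower (value -0.63, SE 0.0770, adjusted p = 1.90e-05, edgeR). The difference between the combination and indisulam alone was -0.14 (SE 0.0788, adjusted p = 0.334, edgeR) and that between SPHINX31 and untreated cells -0.06 (SE 0.0745, adjusted p = 0.688, edgeR), neither of which passed.

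For RNPC3 and SNRNP48, the genes with the tandem pairs printed above, the levels moved in opposite directions with indisulam. The ratio of their read counts was 0.37 and 0.34 in untreated cells, 0.28 and 0.30 with SPHINX31, 1.00 and 0.98 with indisulam, and 0.95 and 0.95 with the combination. The genes differ in length, so only the change of this ratio between groups can be read. The 4 libraries with indisulam were all above the 4 without it, which restates the rise of RNPC3 and the fall of SNRNP48.

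PDCD7 (ENSG00000090470, chromosome 15, 65117379 to 65133808, minus strand) encodes the U11 protein that meets RNPC3 and so bridges the U11 and U12 sides of the di-snRNP. Its level was 44.7 and 45.2 CPM in untreated cells, 43.0 and 42.9 with indisulam, 46.1 and 46.8 with SPHINX31, and 45.6 and 47.6 with the combination. All 8 libraries lay within 42.9 to 47.6 CPM, the narrowest range of the 8 genes relative to level. No comparison was called for it: the change was -0.07 with indisulam (SE 0.0535, adjusted p = 0.340, edgeR), 0.05 with SPHINX31 (SE 0.0533, adjusted p = 0.628) and 0.05 with the combination (SE 0.0532, adjusted p = 0.439).

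ZRSR2 (ENSG00000169249, chromosome X, 15790156 to 15830694, plus strand) encodes the protein that recognises the 3′ splice site of U12-type introns, and it is a relative of U2AF1 of the major spliceosome. Its level was 7.90 and 7.90 CPM in untreated cells, 10.1 and 9.60 with indisulam, 8.49 and 8.68 with SPHINX31, and 10.8 and 11.2 with the combination. The combination libraries were the highest and the untreated ones the lowest, with no overlap between any 2 groups. The rise was 0.32 on the log2 scale with indisulam (SE 0.0803, adjusted p = 0.00542, edgeR quasi-likelihood, Benjamini-Hochberg adjusted), 0.48 with the combination (SE 0.0793, adjusted p = 0.000229) and 0.36 for the combination over SPHINX31 alone (SE 0.0792, adjusted p = 0.00212). Without indisulam replicate 1 the change with indisulam was 0.28 and its adjusted p-value 0.0520 by the same test. The values were 0.12 for SPHINX31 over untreated cells (SE 0.0811, adjusted p = 0.397, edgeR) and 0.15 for the combination over indisulam (SE 0.0784, adjusted p = 0.272, edgeR), and neither passed. ZRSR2 overlaps AP1S2 on the opposite strand by 829 exonic bases (1074 to 1270 reads on AP1S2 per library against 460 to 639 on ZRSR2), and its processed copy ZRSR2P1 had 0 reads.

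ZCRB1 (ENSG00000139168, chromosome 12, 42312086 to 42326257, minus strand) encodes a zinc-knuckle RNA-binding protein of the di-snRNP. Its level was 89.9 and 92.2 CPM in untreated cells, 111 and 104 with indisulam, 94.0 and 91.6 with SPHINX31, and 107 and 117 with the combination. The 4 libraries with indisulam stood above the 4 without it, as for RNPC3 and ZRSR2. ZCRB1 rose by 0.24 on the log2 scale with indisulam (SE 0.0559, adjusted p = 0.00379, edgeR quasi-likelihood, Benjamini-Hochberg adjusted), by 0.30 with the combination (SE 0.0558, adjusted p = 0.000588), and by 0.27 for the combination over SPHINX31 alone (SE 0.0558, adjusted p = 0.00122). With SPHINX31 it was at 0.03 over untreated cells (SE 0.0560, adjusted p = 0.823, edgeR), and with the combination at 0.06 over indisulam (SE 0.0557, adjusted p = 0.579, edgeR).

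SNRNP25, SNRNP35 and ZMAT5 encode the remaining proteins of the particle, of which SNRNP35 resembles the U1 protein SNRNP70. SNRNP25 (ENSG00000161981, chromosome 16, 53828 to 57669, plus strand) stood at 28.4 and 26.6 CPM in untreated cells, 25.2 and 25.0 with indisulam, 23.5 and 22.4 with SPHINX31, and 22.0 and 20.8 with the combination. Its libraries with SPHINX31, alone or combined, were all below the others. It fell by 0.36 on the log2 scale with the combination against untreated cells (SE 0.0646, adjusted p = 0.000419, edgeR quasi-likelihood, Benjamini-Hochberg adjusted). With SPHINX31 alone the change was -0.26 (SE 0.0644, adjusted p = 0.0234, edgeR), but this call was lost without any 1 of the 4 libraries compared: the adjusted p-value was 0.225 without untreated replicate 1, 0.0723 without untreated replicate 2, 0.0576 without SPHINX31 replicate 1 and 0.0936 without SPHINX31 replicate 2. Neither indisulam alone (-0.13, SE 0.0642, adjusted p = 0.111, edgeR) nor the combination against indisulam (-0.23, SE 0.0653, adjusted p = 0.0512, edgeR) passed, and the latter passed with RLE size factors (adjusted p = 0.0441, edgeR). Against SPHINX31 alone the combination was at -0.10 (SE 0.0655, adjusted p = 0.222, edgeR).

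SNRNP35 (ENSG00000184209, chromosome 12, 123458088 to 123473154, plus strand) stood at 16.3 and 17.6 CPM in untreated cells, 17.1 and 16.9 with indisulam, 16.3 and 16.3 with SPHINX31, and 15.5 and 14.4 with the combination. The SPHINX31 libraries were level with the lower untreated one at this precision, and the combination libraries were the lowest. No comparison was called for it, and the nearest was the combination against untreated cells at -0.18 (SE 0.0720, adjusted p = 0.0511, edgeR's quasi-likelihood test), which passed with a GC correction (adjusted p = 0.0308, edgeR). It shares 2063 exonic bases with RILPL1 on the opposite strand, a gene with 712 to 1063 reads per library against 825 to 1050 on SNRNP35. By the study's methods the libraries were strand-specific, but the strand setting of the counting is not given in the sources used here. Reads of SNRNP35 and RILPL1 may therefore not be separated, nor those of ZRSR2 and AP1S2. The same holds for ZCRB1 and PPHLN1, which share 64 exonic bases on opposite strands (3380 to 4745 reads on PPHLN1 per library).

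ZMAT5 (ENSG00000100319, chromosome 22, 29730956 to 29767011, minus strand), which encodes a zinc finger protein of the di-snRNP, stood at 13.4 and 13.0 CPM in untreated cells, 13.8 and 14.2 with indisulam, 15.5 and 12.6 with SPHINX31, and 16.0 and 14.9 with the combination. The SPHINX31 libraries were the most spread of any group for this gene, at 14.0 ± 2.05 CPM (SD, n = 2). The combination was 0.23 above untreated cells on the log2 scale (SE 0.0919, adjusted p = 0.0538, edgeR's quasi-likelihood test), just outside the threshold, and 12 of 18 alternative settings put it inside, the lowest adjusted p-value being 0.00760 with a GC correction. The values with indisulam (0.09, adjusted p = 0.479) and SPHINX31 (0.09, adjusted p = 0.602) did not pass in the same fit.

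**Figure D2:**
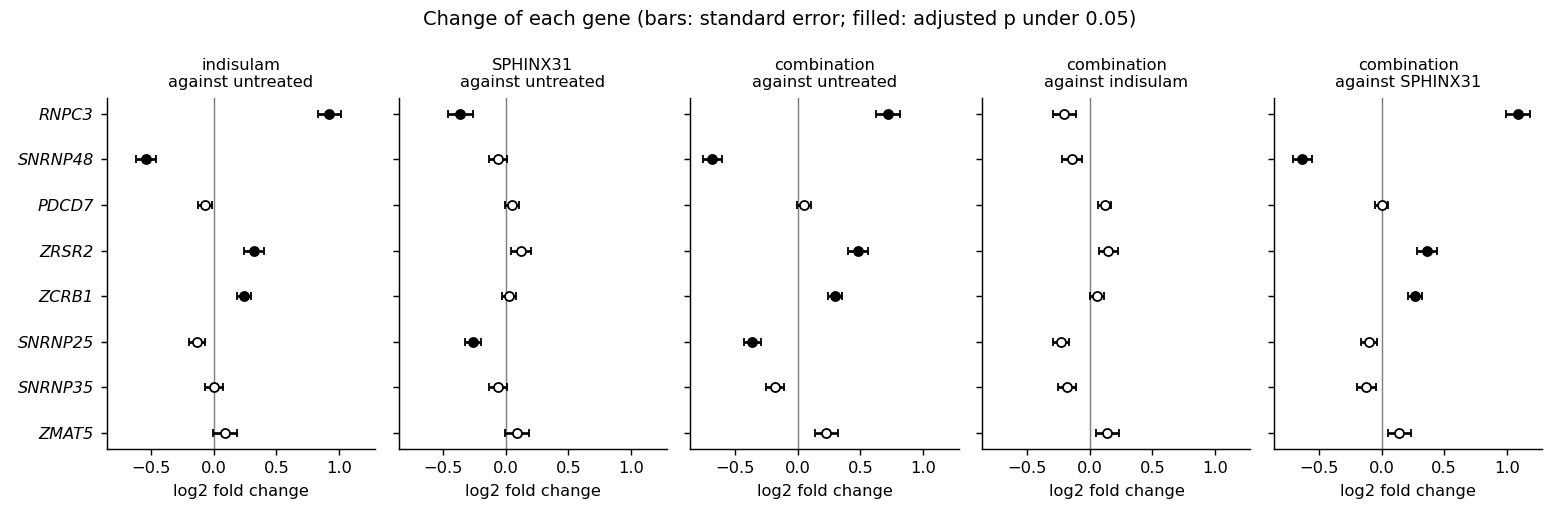
Log2 fold change of the 8 genes in 5 comparisons, with bars for the standard error and filled points for a called difference (adjusted p under 0.05, edgeR). RNPC3 at 0.92 and SNRNP48 at -0.54 lie farthest from 0 with indisulam, and every point is open in the comparison of the combination with indisulam.

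Levels of different genes can be compared only per length, for which CPM was divided by the length of the canonical transcript in kb. In untreated cells ZCRB1 was the most abundant member, at 50.4 CPM per kb, followed by SNRNP25 at 25.3, PDCD7 at 15.9, ZMAT5 at 13.9, SNRNP35 at 11.5, SNRNP48 at 6.23, ZRSR2 at 5.34 and RNPC3 at 4.35. Neighbours in this order did not overlap between the 2 libraries of the group. With indisulam RNPC3 reached 8.23 CPM per kb (8.05 to 8.41) and passed above ZRSR2 at 6.67 and SNRNP48 at 4.27, which became the lowest of the 8.

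With SPHINX31 RNPC3 remained last, at 3.37 CPM per kb (3.05 to 3.70). In that group SNRNP48 (5.56 to 6.40) could not be ordered against ZRSR2 (5.74 to 5.87), nor ZMAT5 (13.3 to 16.4) against PDCD7 (16.3 to 16.6). With the combination RNPC3 (6.91 to 7.45) and ZRSR2 (7.32 to 7.55) overlapped, as did ZMAT5 (15.8 to 16.9) and PDCD7 (16.2 to 16.9), and SNRNP48 was last at 3.88. The order depends on which length is used: per kb of all annotated exons, PDCD7 led untreated cells at 13.9 CPM per kb, SNRNP25 had 12.3, ZCRB1 9.54, and ZRSR2 was lowest at 1.06.

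Across the 8 libraries the log2 CPM of ZCRB1 followed that of ZRSR2 (Pearson r = 0.953) and ran against that of SNRNP48 (r = -0.963), and RNPC3 and SNRNP48 had r = -0.849. These values describe 8 libraries in 4 groups of shared treatment and depth and carry no test. Among 9934 other genes whose log2 CPM averaged 3 or more, the gene most like each member over the 8 libraries was CIAO1 for RNPC3 (r = 0.998), RBM45 for SNRNP48 (0.996), OSER1 for ZRSR2 (0.996), GTF2B for ZCRB1 (0.988), TMEM107 for SNRNP25 (0.981), TDRKH for PDCD7 (0.962), MSH3 for SNRNP35 (0.958) and PYM1 for ZMAT5 (0.954). So close a likeness was common for the genes that followed indisulam and rare for the others: 832 genes had r over 0.95 with SNRNP48, 508 with RNPC3, 308 with ZRSR2 and 176 with ZCRB1, against 15 with SNRNP25, 2 each with PDCD7 and ZMAT5, and 1 with SNRNP35.

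Of the SF3B and Sm proteins, which the minor spliceosome shares with the major one, those called with indisulam were all higher. PHF5A (0.11, SE 0.0629) and SNRPG (0.07, SE 0.0547) were not called. The lists were chosen with earlier results of these data known. Of the 7 SF3B subunits, which sit in both U2 and U12, 6 were called higher and 0 lower with indisulam (median log2 fold change 0.24), beside 20.1% of all tested genes called higher, 23.5% lower and a median of 0.00 over them. Of the 7 Sm proteins, the ring around every spliceosomal snRNA that RNA polymerase II makes, 6 were called higher and 0 lower (median 0.34), with SNRPD3 at 0.51 (SE 0.0550). Of 7 U1, U2 and U2AF proteins of the major spliceosome, 5 were called higher and 0 lower (median 0.18). Among them U2AF2, the reader of the polypyrimidine tract, was at 0.40 (SE 0.0464). The median of the 8 members was 0.04. U2AF1 had only 30 to 68 reads per library and is uncertain: GRCh38 is known to hold a duplicate copy of this gene, and reads with no unique alignment were set aside in the counts. When each library was left out in turn, 4 to 6 SF3B subunits, 5 to 6 Sm proteins and 3 to 5 U1 and U2 proteins were called higher with indisulam and 0 lower in each list.

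With SPHINX31 alone the Sm proteins SNRPG (-0.30, SE 0.0551), SNRPE (-0.26, SE 0.0485) and SNRPD2 (-0.22, SE 0.0536) and the SF3B subunit SF3B3 (-0.22, SE 0.0463) were called lower, none of these 2 lists was called higher, and 0 of the 7 U1 and U2 proteins was called by edgeR or DESeq2, 2 having an unadjusted p-value under 0.05. Of all tested genes 4.94% were called higher and 3.67% lower with SPHINX31, and 4501 of 18661 had an unadjusted p-value under 0.05 (edgeR). Each of these 4 calls was lost without untreated replicate 2 (adjusted p 0.0676 for SNRPG, 0.0666 for SNRPE, 0.173 for SNRPD2 and 0.126 for SF3B3, edgeR). SNRPE, SNRPD2 and SF3B3 were lost without untreated replicate 1 as well, SF3B3 also without SPHINX31 replicate 1 and SNRPD2 without SPHINX31 replicate 2. With the combination against untreated cells 5 SF3B subunits, 6 Sm proteins and 6 U1 and U2 proteins were called higher and 0 lower in each list, and 4 to 5, 5 to 6 and 2 to 6 with each library left out, where 23.8% of all tested genes were called higher and 26.3% lower. Over SPHINX31 alone the combination had 6 SF3B subunits and all 7 of both other lists higher, beside 23.4% of all tested genes higher and 26.5% lower. With each library left out, 6 SF3B subunits, 7 Sm proteins and 5 to 6 U1 and U2 proteins were called higher. Among the last, SNRPA (0.13, SE 0.0489) was lost without any 1 library other than SPHINX31 replicate 1, with the replicate block, with only the groups compared and with all genes of at least 1 count (adjusted p 0.0505 to 0.141, edgeR). U2AF1 was lost in DESeq2 and, in edgeR, without SPHINX31 replicate 1 (adjusted p = 0.0641), SPHINX31 replicate 2 (0.115) or combination replicate 1 (0.283). Over indisulam alone it had SF3B3 (-0.20, SE 0.0462) and SNRPA1 (-0.25, SE 0.0526) lower and U2AF2 (0.18, SE 0.0462) higher, with 3.17% of all tested genes higher and 4.32% lower. Without indisulam replicate 1 these 3 calls were lost (adjusted p 0.144, 0.111 and 0.227, edgeR), as they were without either combination library, and SF3B3 and U2AF2 also without indisulam replicate 2. The call of SF3B3 was also lost with total counts alone (adjusted p = 0.06, edgeR), and that of U2AF2 with the replicate block (adjusted p = 0.0537, edgeR) and without untreated replicate 1 (0.0661) or untreated replicate 2 (0.066).

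Of 8 further proteins tied to minor introns, indisulam lowered 2 and raised 0, a share close to the 23.5% of all tested genes called lower and so not a result about these proteins as a group. CRIPT, which works with RBM48, ARMC7 and other factors around the active minor spliceosome, fell from 1681 and 1569 reads in untreated libraries to 793 and 721 with indisulam, and stood at 1358 and 1467 with SPHINX31 and 757 and 781 with the combination. Its change was -0.95 with indisulam (SE 0.0649, adjusted p = 1.41e-07, edgeR's quasi-likelihood test) and -0.99 with the combination (SE 0.0648, adjusted p = 5.21e-08), farther from 0 than the changes of SNRNP48. CENATAC, which acts in the splicing of minor introns that begin with AT, was at 381 and 411 reads in untreated libraries and at 295 and 221 with indisulam, a change of -0.47 (SE 0.140, adjusted p = 0.0152, edgeR) that was lost without indisulam replicate 2 (-0.35, adjusted p = 0.0896) or untreated replicate 2 (-0.39, adjusted p = 0.104). RBM48 (0.06, SE 0.0812) and ARMC7 (-0.02, SE 0.0624) did not pass.

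In the same list TXNL4B, a relative of a U5 protein, rose with SPHINX31 (0.34, SE 0.0623, adjusted p = 0.00461, edgeR) and with the combination (0.25, SE 0.0624, adjusted p = 0.00412, edgeR). SCNM1, a zinc finger protein of the minor spliceosome, rose with the combination (0.32, SE 0.0696, adjusted p = 0.00176, edgeR), where PPIL2 (-0.23, SE 0.0610, adjusted p = 0.00739, edgeR) and CENATAC (-0.45, SE 0.139, adjusted p = 0.0162, edgeR) were called lower beside CRIPT. These 2 higher and 3 lower of 8 stand beside 23.8% and 26.3% of all tested genes. The rise of TXNL4B was lost without untreated replicate 1, with SPHINX31 (0.29, adjusted p = 0.0879, edgeR) and with the combination (0.21, adjusted p = 0.0645, edgeR). With the combination PPIL2 was lost without combination replicate 2 (adjusted p = 0.0780, edgeR) or untreated replicate 2 (0.0619), and so was CENATAC (adjusted p = 0.191 and 0.111, edgeR).

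The minor snRNAs have no poly(A) tail and the libraries were made from polyadenylated RNA: RNU11 had 0 to 1 reads per library, RNU12 0, RNU4ATAC 0 to 4 and RNU6ATAC 1 to 13. These counts do not measure snRNA levels, and no change is read from them.

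**Figure D3:**
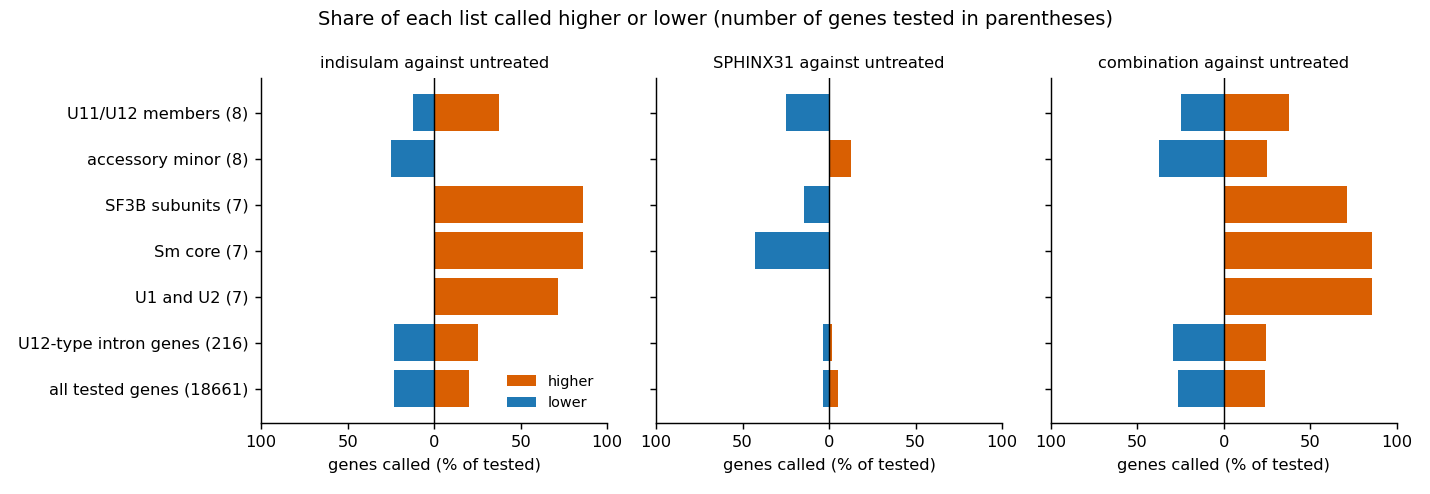
Share of each list called higher (orange, right) or lower (blue, left), as a percentage of its tested genes, for the 3 treatments against untreated cells, with the number tested in parentheses. With indisulam 6 of 7 SF3B subunits, 6 of 7 Sm proteins and 5 of 7 U1 and U2 proteins were higher, whereas the 8 members split into 3 higher and 1 lower and the 216 U12-type intron genes stayed close to all 18661 tested genes.

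The genes that depend on the minor spliceosome were found in the reference by sequence alone. An intron of a protein-coding transcript was taken as U12-type when it began with ATATCCTT or GTATCCTT and held the branch point motif CCTTAAC or CCTTGAC in its last 40 bases, on the sense strand. Of 256414 introns, 260 in 235 genes met this rule, which is 1.17% of 20046 protein-coding genes, and 639 introns in 536 genes held the 5′ motif. None of the 8 members has an intron with both motifs. RNPC3 has 1 intron with the 5′ motif alone (chr1:103551074-103551720, plus strand, 647 bases), which begins GTATCCTTtaaatccatcta with the motif in capitals. In the 216 genes that were tested, 239 such introns began with AT (92) or GT (147), their branch point motif was CCTTAAC in 147 and CCTTGAC in 92, and it ended 0 to 28 bases (median 11) before the intron end. A strict motif rule misses U12-type introns with other letters.

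The U12-type introns of genes that the next paragraphs turn on are shown by their first 20 and last 40 bases, 5′ to 3′ on the strand of the gene in GRCh38, with the motifs in capitals.
PIGN, first 20: GTATCCTTtgtggagacttt
PIGN, last 40: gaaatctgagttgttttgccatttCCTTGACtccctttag
CRTC1, first 20: ATATCCTTttcaccagagga
CRTC1, last 40: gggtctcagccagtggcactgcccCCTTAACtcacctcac
EML2, first 20: GTATCCTTttgctggaatct
EML2, last 40: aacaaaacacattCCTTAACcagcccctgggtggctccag
HNRNPL, first 20: ATATCCTTtgctggaaaaca
HNRNPL, last 40: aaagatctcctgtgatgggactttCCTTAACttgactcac
INSIG1, first 20: GTATCCTTaattttctgtgc
INSIG1, last 40: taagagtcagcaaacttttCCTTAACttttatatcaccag
These introns lie at chr18:62085265-62088755 (minus strand) in PIGN, chr19:18745961-18747052 (plus) in CRTC1, chr19:45634472-45638504 (minus) in EML2, chr19:38844105-38845649 (minus) in HNRNPL and chr7:155301691-155302250 (plus) in INSIG1, each in the canonical transcript. CRTC1 and HNRNPL hold the kind that begins with AT and ends with AC, and the other 3 the kind that begins with GT and ends with AG.

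As a list the U12-type intron genes were called about as often as all tested genes. With indisulam 54 of 216 were called higher and 50 lower, 48.1% in all against 43.7% of all tested genes, and their median log2 fold change was 0.03. The median size of the change regardless of sign was 0.19 in these genes and 0.26 over all tested genes, which were not matched to the list by level or gene type. With the combination 52 were called higher and 63 lower (53.2%, median 0.01), against 50% of all tested genes called. Over SPHINX31 alone 50 were higher and 53 lower (47.7%, median 0.00), against 49.9% of all tested genes. No test of the list against other genes was made.

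SPHINX31 alone called 4 U12-type intron genes higher and 7 lower (5.09% of 216, against 8.61% of all tested genes). This count moved with single libraries, from 3 without untreated replicate 1 and 4 without untreated replicate 2 or SPHINX31 replicate 1 to 17 without SPHINX31 replicate 2. The combination against indisulam called 5 higher and 17 lower (10.2%, against 7.50% of all tested genes), and 7 without combination replicate 2, 8 without indisulam replicate 1 and 9 without combination replicate 1.

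The largest falls of single genes among those named went beyond those of the 8 members, though they were drawn from 216 genes against 8. For rises against untreated cells this held with the combination (INSIG1 at 1.28, RNPC3 at 0.72). It did not hold with indisulam (HNRNPL and INTS8 at 0.61, RNPC3 at 0.92). PIGN, an enzyme of GPI anchor synthesis, was at 30.2 and 32.2 CPM in untreated cells, 13.8 and 11.8 with indisulam, 28.5 ± 2.11 with SPHINX31 (SD, n = 2), and 9.41 and 10.3 with the combination. It was the gene of the list that fell most with indisulam among those named (-1.28, SE 0.0864, adjusted p = 1.20e-07, edgeR) and with the combination (-1.66, SE 0.0884, adjusted p = 8.97e-09), and it was also lower in the combination than in indisulam alone (-0.38, SE 0.0935, adjusted p = 0.0259). That last call was lost without indisulam replicate 1 (-0.26, adjusted p = 0.214, edgeR), combination replicate 1 (adjusted p = 0.179) or combination replicate 2 (adjusted p = 0.0812).

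CRTC1, a coactivator of CREB, was at 14.1 and 12.6 CPM in untreated cells, 5.67 and 5.89 with indisulam, 14.7 and 13.5 with SPHINX31, and 5.41 and 5.82 with the combination. Its libraries fell into those with indisulam and those without, with no overlap, and its change was -1.21 with indisulam (SE 0.0925, adjusted p = 3.79e-07, edgeR) and -0.04 between the combination and indisulam (SE 0.101, adjusted p = 0.855, edgeR). EML2, a microtubule-associated protein, had the same layout, with 34.9 and 34.4 CPM in untreated cells and 17.0 and 14.8 with indisulam (-1.12, SE 0.0763, adjusted p = 1.31e-07, edgeR). MORC4, an ATPase of the MORC family, was at 133 and 131 CPM in untreated cells, 78.8 and 73.6 with indisulam, 103 and 108 with SPHINX31, and 59.3 and 63.6 with the combination, so that the 4 groups formed 4 separate levels. It was called lower in both single treatments, by -0.80 with indisulam (SE 0.0563) and -0.33 with SPHINX31 (SE 0.0556). RABL2B, lower with indisulam (-0.84, SE 0.0761), has a near-identical paralog, RABL2A, and is uncertain.

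Among the genes of the list that rose, HNRNPL, an hnRNP that regulates splicing, was at 298 and 299 CPM in untreated cells, 467 and 446 with indisulam, 276 and 292 with SPHINX31, and 432 and 428 with the combination. It rose by 0.61 on the log2 scale with indisulam (SE 0.0480, adjusted p = 4.57e-07, edgeR), as did the Integrator subunit INTS8 (0.61, SE 0.0635), the mannosyltransferase ALG3 (0.60, SE 0.0552) and the Sin3 complex component BRMS1L (0.49, SE 0.0714). INSIG1, which holds the SREBP activation complex in the endoplasmic reticulum, was at 35.4 and 34.4 CPM in untreated cells, 49.9 and 49.5 with indisulam, 45.9 and 62.7 with SPHINX31, and 90.2 and 79.3 with the combination. It was higher with either treatment (0.51, SE 0.109 with indisulam and 0.64, SE 0.109 with SPHINX31) and highest with the combination (1.28, SE 0.108, adjusted p = 5.76e-07, edgeR), and its interaction was 0.13 (SE 0.152, adjusted p = 0.844, edgeR).

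Other U12-type intron genes were set apart by SPHINX31. MATN3, a cartilage matrix protein, was called lower with SPHINX31 (-0.50, SE 0.0807) and lower in the combination than in indisulam alone (-0.55, SE 0.0795). The kinetochore gene SPC24 was at 45.4 and 43.9 CPM in untreated cells, 61.1 and 62.5 with indisulam, 36.5 and 38.0 with SPHINX31, and 46.9 and 47.9 with the combination. It was thus called higher with indisulam (0.47, SE 0.0538) and lower with SPHINX31 (-0.26, SE 0.0547), and the combination did not pass against untreated cells (0.09, SE 0.0541, adjusted p = 0.203, edgeR's quasi-likelihood test). CLCN6, an endosomal chloride and proton exchanger, was higher with SPHINX31 (0.31, SE 0.0814), as was the elongation factor gene TCEA1 (0.22, SE 0.0634). The tetraspanin gene TSPAN13 (-0.29, SE 0.0573) and the decapping enzyme gene DCP2 (-0.27, SE 0.0627) were lower. Without untreated replicate 1 the calls with SPHINX31 of SPC24 (adjusted p = 0.125), CLCN6 (0.251), TCEA1 (0.284), TSPAN13 (0.106) and DCP2 (0.102) were lost (edgeR), while those of MATN3, INSIG1 and MORC4 passed in each setting run. Other libraries also decided some of these calls: without SPHINX31 replicate 1 those of SPC24, CLCN6, TCEA1, TSPAN13 and DCP2 were lost too, with adjusted p-values of 0.0603 for TSPAN13 to 0.176 for TCEA1 (edgeR). SPC24 and DCP2 were also lost without untreated replicate 2, and CLCN6 and TCEA1 without any 1 of the 4 libraries compared. TCEA1 was lost with RLE size factors as well (adjusted p = 0.0535, edgeR).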

How the data were processed

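RNA sequencing of A549 cells was analysed from gene counts. The counts deposited by the authors are whole numbers of reads per Ensembl gene, with no normalization, plus unassigned reads by chromosome. The submitters' processing notes list HISAT2 2.2.1, HTSeq and GRCh38, while the strand setting and the annotation used for counting are not given in the sources used here. Between 83% and 86% of recorded reads were on genes and 4.82% to 6.03% were ambiguous; rows that name no gene were left out of library sizes and tests.

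Genes were filtered with filterByExpr, which left 18661, of which 99.7% had an entry in GENCODE release 44. Counts were scaled by TMM (factors 0.978 to 1.02) and tested with edgeR 4.0.16 in R 4.3.3 by the quasi-likelihood test over all 8 libraries (4 residual degrees of freedom, common coefficient of biological variation 0.0491). P-values were adjusted after Benjamini and Hochberg across the 18661 genes, with a threshold of 0.05. Standard errors come from this fit and hold counting error as well as the difference between replicates. The procedure was run on counts simulated with planted changes and the spread estimated from these libraries. Such a run cannot bear on variation between independent treatments or on differences shared between libraries. Replicates differed by more than counting allows (chi-square divided by its degrees of freedom, 6.6 to 10.7), so none was a library deposited again.

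Named are the 8 members, tested genes of the fixed lists, and, per comparison, up to 5 U12-type intron genes called higher and 5 called lower with the largest change, a mean log2 CPM of 3 or more and no overlap between groups; not all are printed. The most alike gene of a member has the highest Pearson correlation of log2 CPM over the 8 libraries. Members and lists were chosen with earlier results of these data known. Introns, lengths and sequences came from GENCODE release 44 and the GRCh38 sequence, read with Python 3.11.15. Alternatives were RLE size factors (edgeR), total counts alone, DESeq2 1.42.0, filters of at least 1 count in any library or 10 in every library, only the groups compared, a replicate block, a GC correction over 50 bins, both together, each library left out, and the 5′ motif alone for the U12-type list. A block with the indisulam numbers exchanged was added after seeing the data. Without 1 library, the lone library of a group was assumed to vary like the other groups.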

Additional observations from a re-analysis of the deposited data

How the results depend on the processing

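No call of the 8 members reversed under the 18 alternative settings: of 856 values, 827 kept their side of the threshold, 9 lost the call and 20 gained it. Some values that were never called changed sign. With SPHINX31 against untreated cells, SNRNP48 ran from -0.17 to 0.04 and ZMAT5 from -0.07 to 0.23 on the log2 scale. Of 146 calls of other named genes, 101 held in each setting run and none reversed. The members called with SPHINX31, 2 as reported, were 1 with the replicate block and 0 to 2 when each library was left out. For the combination against indisulam, 0 as reported, 1 member (SNRNP25) was called with RLE size factors, with the GC correction, with the block and GC correction together, and with the block whose indisulam numbers were exchanged. The U12-type intron genes called with SPHINX31, 11 as reported, were 17 with total counts alone, 18 with all genes of at least 1 count, 31 with the GC correction, 25 with block and GC correction, 29 with the exchanged block, and 3 to 17 without single libraries. For the combination against indisulam, 22 became 36 with the GC correction, 41 with the exchanged block, and 7 to 25 without single libraries. With the 5′ motif alone, a longer list of 488 tested genes, the counts were 248 (indisulam), 27 (SPHINX31), 281 (combination) and 47 (combination against indisulam). Apart from that longer list, the cause of these shifts was not tested.

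The replicate numbers did not mark 1 pairing common to the 4 groups. Deviations of same-numbered libraries from their group means were correlated over 9946 genes. The values were -0.569 between untreated and indisulam, 0.455 between untreated and SPHINX31, and -0.494 between indisulam and SPHINX31. For the combination they were 0.167 with untreated, 0.0863 with indisulam and 0.0162 with SPHINX31. Some libraries of different groups thus shared a difference that the reported fit does not model, and its cause was not tested. With the replicate block 4 members were called with indisulam, 1 with SPHINX31 (RNPC3 had adjusted p = 0.0579, edgeR) and 6 with the combination. With the indisulam numbers exchanged, 2 members were called with SPHINX31 and 7 with the combination.

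Calls over all genes also moved. With SPHINX31 there were 1606 in the reported fit, 2656 with the GC correction, 2630 with the exchanged block, and 482, 539 and 697 without untreated replicate 1, untreated replicate 2 and SPHINX31 replicate 1. For the combination against indisulam, 1399 became 2200 with the GC correction, 2250 with the exchanged block, and 440, 609 and 696 without combination replicate 2, combination replicate 1 and indisulam replicate 1. Scaling by total counts alone moved the split with SPHINX31 from 921 higher and 685 lower to 1341 and 515. It moved the split for the combination against indisulam from 592 and 807 to 942 and 498. That of the combination against untreated moved from 4434 and 4903 to 5331 and 4304. Under this scaling the median log2 fold change of all genes was 0.0281 with SPHINX31. It was 0.048 for the combination against indisulam and 0.0543 for the combination against untreated.

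With 354 to 6677 reads per member and library, both counting error and the 2 technical replicates of a group limit what can be called.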
